A study of Mus musculus with 11 samples.

Results

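The genes described here are the ligands and receptors of the 4 classical axon guidance systems, the ephrins with the Eph receptors, the semaphorins with the plexins and neuropilins, the Slits with the Robo receptors, and the netrins with Dcc and the Unc5 receptors. They were taken by gene symbol from a table of 77179 mouse gene identifiers, which gave 71 genes after 3 antisense entries of Plxna4 were left out. Of the 71, 68 reached 1 TPM (a transcript level corrected for transcript length and for the library's total) in at least 2 of 11 libraries and are described, 36 ligands and 32 receptors among the 19008 genes that were tested. Epha1 (0.0424 to 0.111 TPM over the 11 libraries), Epha2 (0.0678 to 0.821 TPM) and Sema3g (0.0791 to 1.09 TPM, at 1 TPM or more in 1 library) did not meet that minimum. The membrane-bound ephrins, semaphorins and netrin-G proteins are counted as ligands, although several of them also signal into the cell that carries them.

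All libraries came from cortex and hippocampus, dissected together, of mice that carry a GFP-tagged ribosomal protein allele (Rpl10aeGFP/eGFP) which Cre recombinase switches on. In NEX-RiboTag mice, bred from NEX-Cre mice of C57BL/6J background, Cre is driven from the Neurod6 (NEX) locus, active in excitatory neurons of the forebrain, and tagged ribosomes are pulled down with their mRNA by beads against GFP. The pull-down (IP) was made on day 7, day 14 and day 21 after birth (P7, P14 and P21) in 3 libraries each, all of genotype NEX-Cre;Rpl10aeGFP/eGFP and called biological replicates in the labels. Whole-tissue RNA (input) is given for P7, in 2 libraries, replicate 1 from NEX-Cre;Rpl10aeGFP/eGFP and replicate 2 from Rpl10aeGFP/eGFP without Cre. Input at P14 or P21 was not analysed here, so an age change in the IP cannot be set beside the tissue. How many animals stand behind each library is unstated in the sources used here. The p-values therefore measure the spread between these libraries.

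Guidance cues steer a growth cone by attracting or repelling it. Ephrin-As are held in the membrane by a lipid anchor and ephrin-Bs by a transmembrane segment, and both bind Eph receptor tyrosine kinases on the neighbouring cell. Class 3 semaphorins are secreted and act through a neuropilin joined to a plexin-A, whereas most classes 4 to 7 are membrane proteins that bind plexins directly. Slits repel axons through Robo receptors, and netrin-1 attracts through Dcc or repels when an Unc5 receptor takes part. In the postnatal forebrain, after long tracts have formed, several of these proteins also act in axon pruning, dendritic spine formation and synapse assembly.

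The libraries held 15154 to 17793 genes at 1 TPM or more, and correlations of log2 values within groups ran from 0.988 to 0.994. The values keep no record of sequencing depth, so depth is unknown and no counting interval can be given. Summed TPM of 9 inhibitory neuron markers was 861 to 1000.4 in input and 83.3 to 96.0 in P7 IP, and that of 8 astrocyte markers 3066 to 3366 and 137 to 189.6. Summed TPM of 8 excitatory neuron markers was 1124 to 1263 in input and 1148 to 1404 in P7 IP, and reached 3765 to 4047 in P21 IP. In the IP, the summed markers of oligodendrocytes, astrocytes and endothelial cells went up with age without overlap. The endothelial markers summed to 13.6 to 16.5 TPM at P7, 19.3 to 22.8 at P14 and 23.3 to 32.0 at P21. Those of oligodendrocyte precursors and microglia went up between P7 and P14 without overlap, and overlapped between P14 and P21. The precursor markers summed to 13.7 to 17.1 TPM at P7 and 21.0 to 26.7 at P14. Microglial markers summed to 21.4 to 26.6 TPM at P7 and 28.2 to 33.8 at P14. Those of inhibitory neurons (76.6 to 86.4 TPM at P14) overlapped between P7 and P14. So did those of mural cells and fibroblasts (14.2 to 29.0 TPM at P7 and 24.7 to 26.0 at P14). The 7 oligodendrocyte markers summed to 32.2 to 36.1 TPM at P7, 299.9 to 406 at P14 and 504 to 723 at P21, and the astrocyte markers to 279.6 to 339.7 at P14 and 410.3 to 540.5 at P21. Between P7 and P14, 7 of 7 oligodendrocyte, 7 of 8 astrocyte, 6 of 7 microglial and 4 of 5 oligodendrocyte precursor markers rose. So did 4 of 9 inhibitory neuron, 2 of 6 endothelial and 2 of 8 mural or fibroblast markers, beside 26.7% of all genes. In that step 2 inhibitory neuron markers and 1 microglial marker fell, beside 22.8% of all genes. At P21 the inhibitory neuron markers summed to 98.9 to 121.5 TPM, above every P7 and P14 IP library. None of these markers was at 0 in the IP at any age. Their part in the rises of guidance genes described below was not tested, and in bulk RNA fewer cells of a type and less RNA per cell cannot be told apart.

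A few ligands led the guidance genes by level in the pull-down. At P7 the highest mean levels in IP were those of Efnb3, Efna3, Sema6b, Ntng2, Sema7a, Sema4g and Sema6c, all ligands. At P21 they were those of Sema6b, Efna3, Sema7a, Ntng2 and Efnb3, followed by the receptors Ephb6, Unc5a and Epha4. Sema4g went from rank 6 of 68 at P7 to rank 19 at P14 and rank 31 at P21. Of the 68 genes, 45 had a mean of at least 10 TPM in input, 34 in P7 IP, 29 in P14 IP and 28 in P21 IP, and the median gene stood at 15.9, 9.61, 7.58 and 5.98 TPM in that order.

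**Figure D1:**
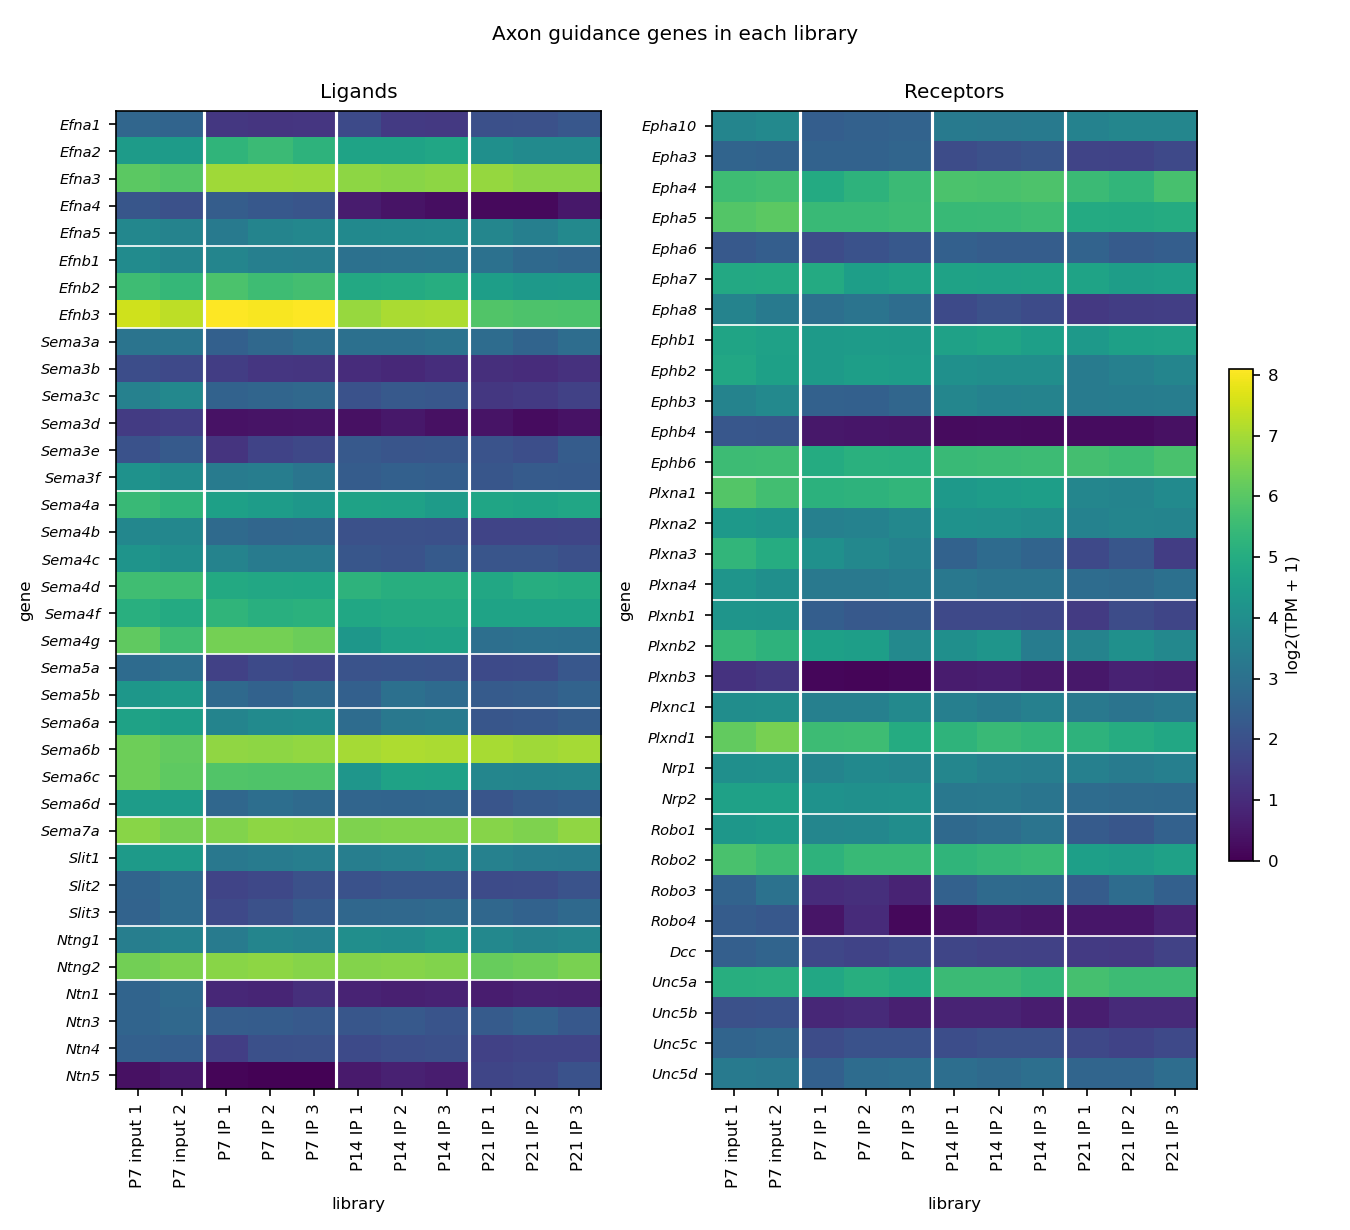
Level of each guidance gene, as log2(TPM + 1) by colour, in the 2 input and 9 IP libraries (columns); ligands are in the left panel and receptors in the right one, grouped by family. Sema6b, Efna3, Sema7a and Ntng2 are high in every IP library, while Efnb3, Sema4g and Sema6c are high at P7 and lower at P21.

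Summed over the 36 ligands, TPM was 1030.5 ± 65.5 (SD, n = 2) in input and 1136 ± 6.06 (SD, n = 3) in P7 IP, then 852 ± 27.6 at P14 and 700.2 ± 18.4 at P21. Summed over the 32 receptors it was 733 ± 7.56 in input, 480.4 ± 10.6 in P7 IP, 484 ± 5.84 at P14 and 407 ± 12.2 at P21. The ratio of ligand to receptor TPM was 1.458 and 1.352 in the input libraries, 2.31 to 2.43 in P7 IP, 1.71 to 1.82 in P14 IP and 1.71 to 1.73 in P21 IP. Thus the P7 IP libraries held the highest ratio, without overlap with the other groups, and the P14 and P21 ranges overlapped.

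The comparison of P7 IP with P7 input asked which guidance genes the pull-down holds more or less of than the whole tissue. Of the 68 genes, 6 were higher in IP, all of them ligands (Efna3, Efna2, Efnb3, Sema6b, Sema4g and Ntng2), 51 were lower and 11 did not pass the test, whereas over all tested genes 18.6% were called higher, 51.1% lower and 69.8% either way. No receptor was higher and 28 of 32 were lower. The median log2 change was -0.55 for the guidance genes, -0.57 for the ligands and -0.55 for the receptors, against -0.33 for all genes tested. In single libraries, 52 genes lay below both inputs in all 3 P7 IP libraries, 7 lay above them and 9 overlapped, beside 56.3% of all tested genes below and 22.1% above. The 51 include 5 genes that reached 1 TPM only in input (Ephb4, Sema3d, Plxnb3, Robo4 and Unc5b), which could pass the filter only by being lower in IP. Of the other 63 genes, 46 were lower and 6 higher. Of the 5, all but Sema3d are receptors and stand among the 28 lower ones. These counts moved with the scaling. With median-of-ratios scaling the all-gene median moved up by 0.33, and 13 guidance genes were higher and 30 lower, beside 32.9% and 32.3% of all genes. With quantile normalisation the shift was 0.36, and 12 were higher and 30 lower, beside 32.9% and 31.7% of all genes. Under these scalings the guidance genes' median was -0.25 and -0.16.

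**Figure D2:**
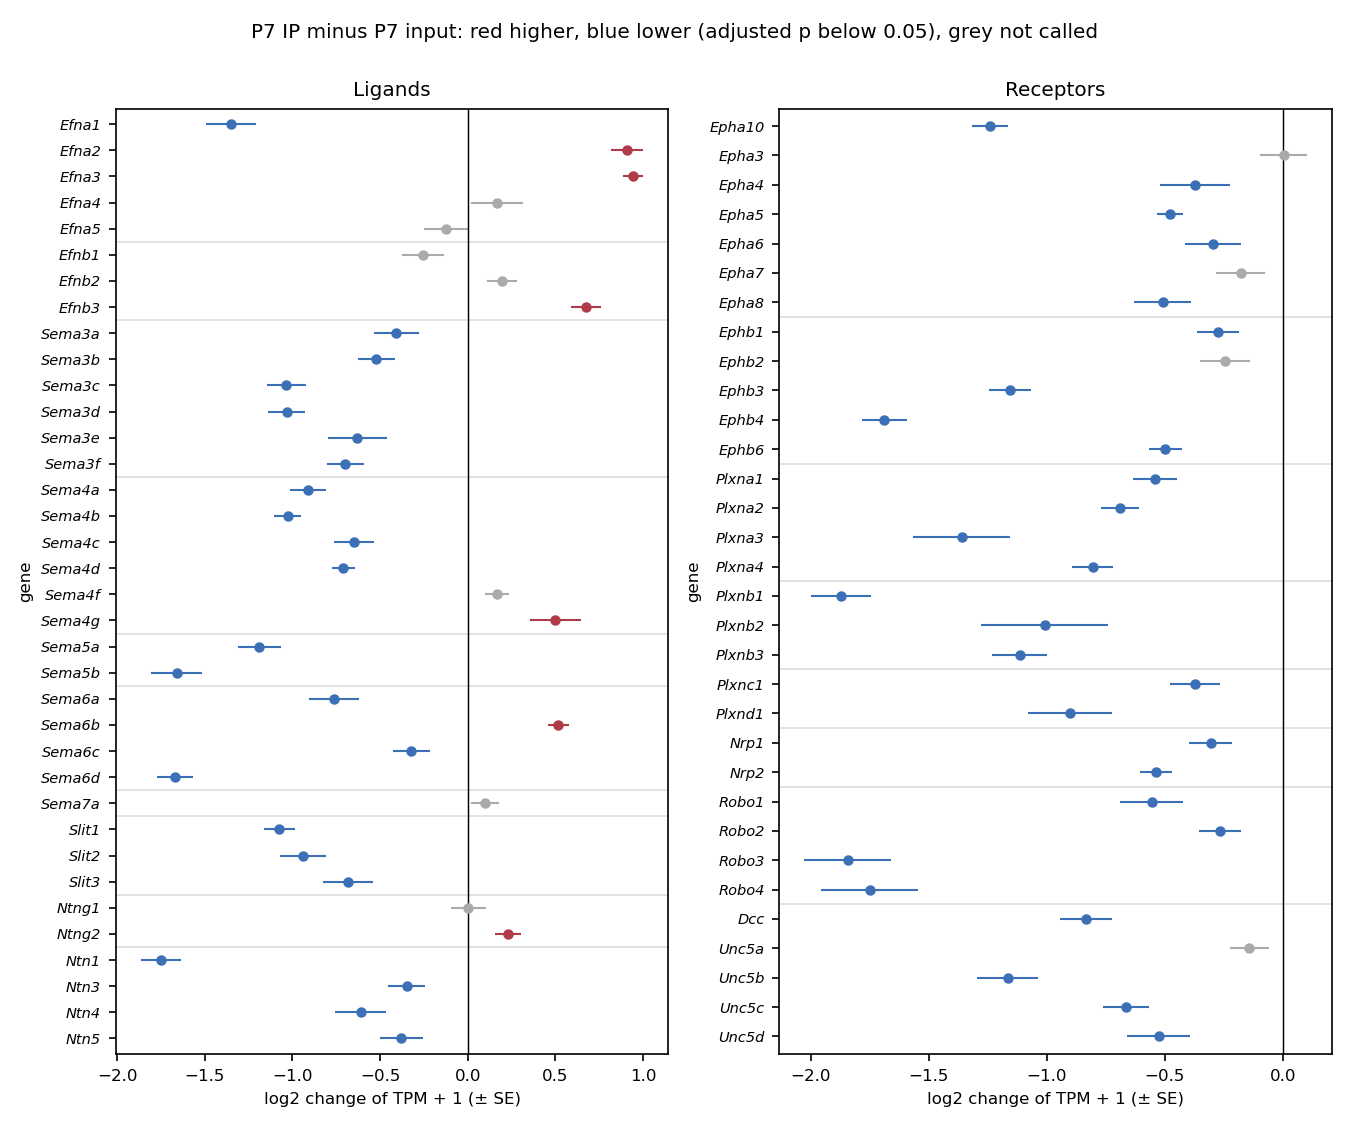
Log2 change of TPM + 1 between P7 IP and P7 input for each guidance gene (points, with standard error of the limma fit as bars); ligands are in the left panel and receptors in the right one, and values right of 0 are higher in IP. The 6 genes that passed the test on the higher side are ligands, from Ntng2 at 0.23 to Efna3 at 0.94, and the lowest is the receptor Plxnb1 at -1.87.

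Over the 2 weeks that followed, the changes went in both directions. From P7 to P14 IP 19 of the 68 genes rose and 24 fell, 43 in all, against 26.7% of all genes higher, 22.8% lower and 49.5% either way. From P14 to P21 IP 3 rose and 25 fell, 28 in all, against 8.53%, 19.7% and 28.3%. From P7 to P21 IP 13 rose and 32 fell, 45 in all, against 27.3%, 32.6% and 59.9%. Their median log2 changes were -0.10, -0.18 and -0.25, against 0.03, -0.08 and -0.04 for all genes. Ligands rose in 9, 2 and 6 cases and fell in 15, 13 and 17, and receptors rose in 10, 1 and 7 cases and fell in 9, 12 and 15. The 3 age comparisons share libraries and are not independent of each other. On the log2(TPM + 1) scale, 16 genes that were called lower at P21 than at P7 had fallen at least 2-fold and 3 that were called higher had risen by as much (Epha10, Robo3 and Ntn5), against 7.48% and 7.14% of all genes. In TPM with nothing added, 18 called falls and 5 called rises were of that size, the other rises being those of Efna1 and Plxnb3. Ntn5 is also among the 3 rises from P14 to P21 and the 13 from P7 to P21. It reached 1 TPM at P21 alone, so it could pass the filter only by being high there. In the first week, libraries did not overlap for 22 genes that were higher and 29 that were lower, against 31.1% and 26.7% of all genes, and in the second week for 6 and 33, against 13.7% and 30.1%.

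Counted by step, 16 genes fell in both weeks, 8 fell in the first only and 5 in the second only, against 9.70%, 12.6% and 6.84% of all genes. Of the genes that rose in the first week, 13 did not pass in the second, 4 fell and 2 (Epha10 and Ntn5) rose again, against 17.9%, 3.18% and 5.59% of all genes. Ntn5 reached 1 TPM at P21 alone and so had to be higher there to be counted. Only Efna1 rose in the second week alone and 19 genes passed in neither step, against 2.37% and 41.3% of all genes, and none fell and then rose, a course of 0.563% of all genes. A difference between the second and the first weekly step passed the test for 18 genes, 7 with a higher second step and 11 with a lower one, against 7.46% and 16.8% of all genes, and 24.3% either way.

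**Figure D3:**
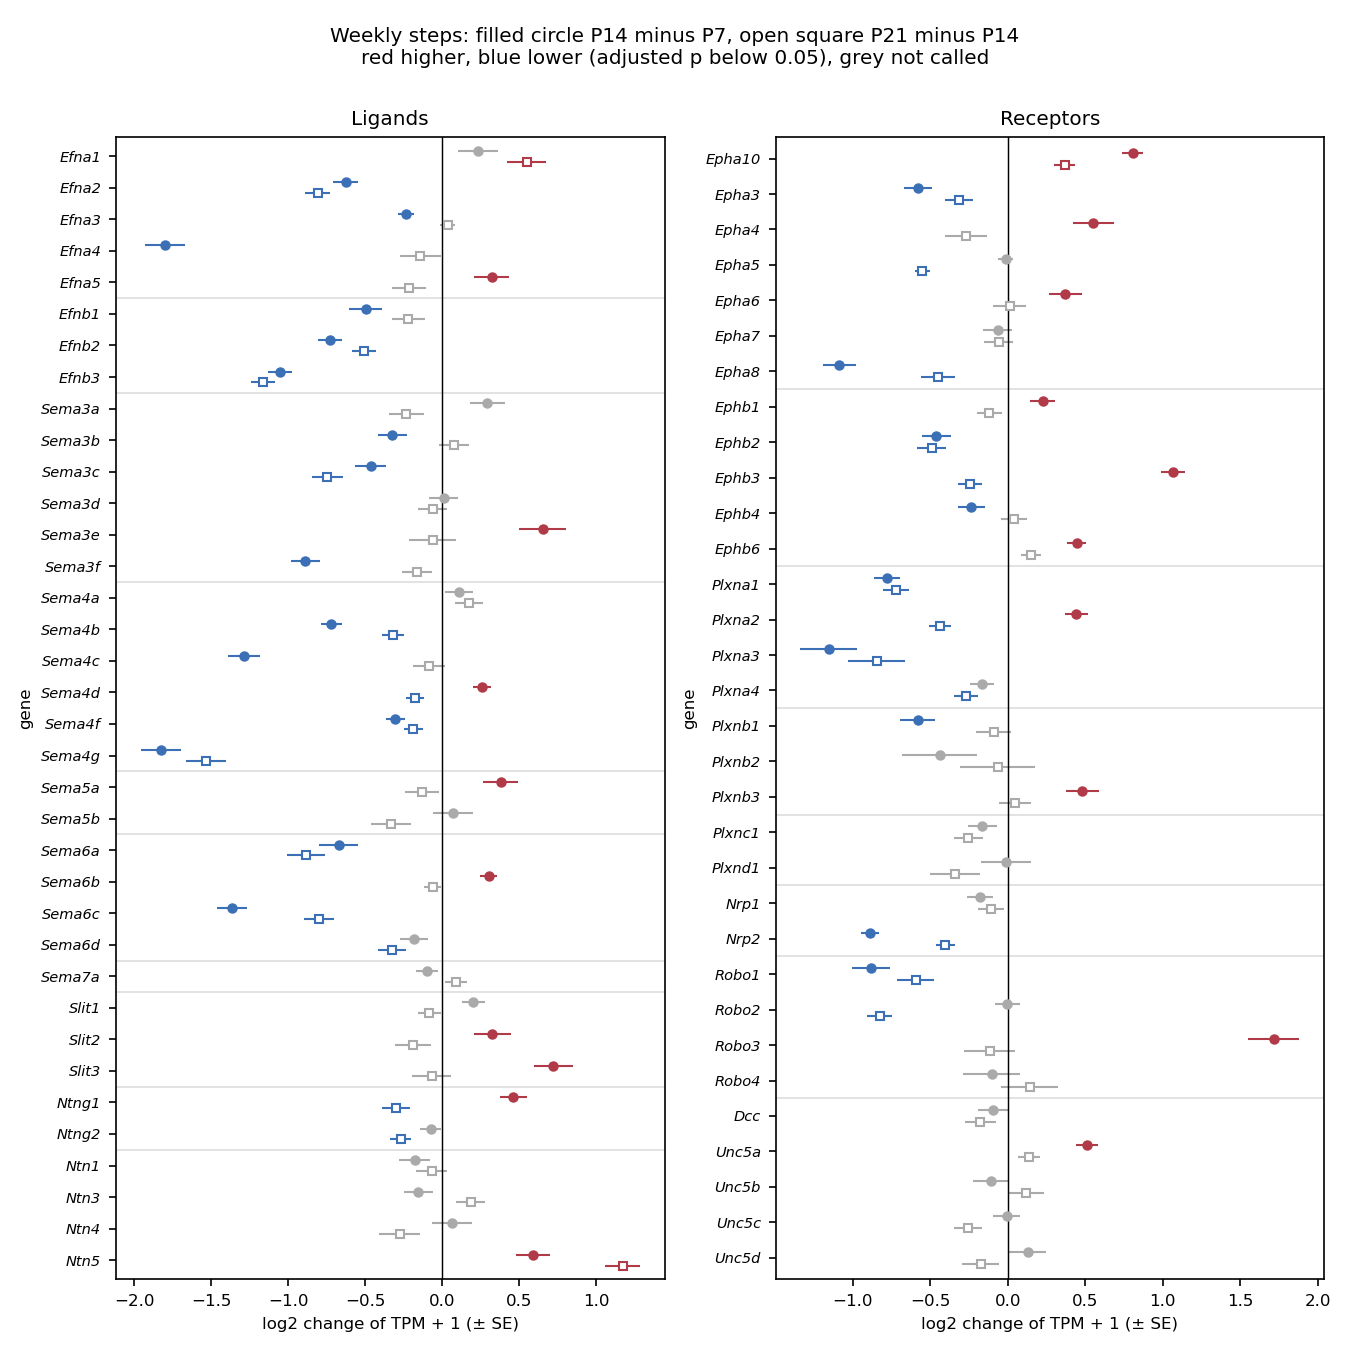
Log2 change of TPM + 1 per week in the IP for each guidance gene, from P7 to P14 (filled circles) and from P14 to P21 (open squares), with standard errors of the limma fit; ligands are in the left panel and receptors in the right one. Sema4g and Efnb3 lie far left of 0 in both weeks, Robo2 lies at 0 in the first week and at -0.82 in the second, and Robo3 has the largest rise, 1.72 in the first week.

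The ephrins, the ligands of the Eph receptors, included the guidance gene of highest level in P7 IP. Efnb3 (ENSMUSG00000003934), which encodes ephrin-B3, a transmembrane ligand known as a midline repellent of corticospinal axons, stood at 179.8 and 154 TPM in input and 272, 255 and 273 TPM in P7 IP. Efnb3 was then at 114, 133 and 138 TPM in P14 IP and 58.4, 56.4 and 54.8 TPM in P21 IP. All P7 IP libraries lay above both inputs, and each later age lay below the one before it without overlap. The log2 change was 0.68 ± 0.09 (limma adjusted p = 5.05e-05) from input to P7 IP, -1.05 ± 0.08 (limma adjusted p = 2.24e-06) in the first week and -1.16 ± 0.08 (limma adjusted p = 1.51e-05) in the second, and -2.22 ± 0.08 (limma adjusted p = 9.5e-09) over both. Efnb2, whose product is also known from arterial endothelium, fell in both weeks (-0.73 ± 0.08 and -0.51 ± 0.08), from 47.1 to 54.4 TPM at P7 to 20.0 to 22.2 TPM at P21, and Efnb1 fell over the 2 weeks by -0.72 ± 0.11. Summed ephrin-B TPM was 328 ± 13.5 at P7, 165.6 ± 14.6 at P14 and 83.6 ± 3.77 at P21 (SD, n = 3). The share of Efnb3 in that sum was 81.3%, 77.4% and 67.7%.

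Among ephrin-As, 2 of the 5 genes were higher in P7 IP than in input, beside 18.6% of all genes. Efna3 (ENSMUSG00000028039), the ephrin-A of highest level, stood at 65.4 and 59.8 TPM in input and 123, 122 and 118 TPM in P7 IP. Efna3 was then at 105, 99.97 and 104 TPM in P14 IP and 112, 102 and 102 TPM in P21 IP. All P7 IP libraries lay above both inputs, the P14 libraries lay below those of P7, and P14 and P21 overlapped. Its log2 change was 0.94 ± 0.06 (limma adjusted p = 2.76e-07) from input to P7 IP and -0.23 ± 0.05 (limma adjusted p = 0.00348) in the first week. Efna2 (ENSMUSG00000003070) stood at 20.9 and 20.7 TPM in input and 38.5, 45.2 and 36.9 TPM in P7 IP. Efna2 was then at 24.7, 25.2 and 26.8 TPM in P14 IP and 15.5, 13.6 and 13.5 TPM in P21 IP. It was higher in P7 IP by 0.91 ± 0.09 (limma adjusted p = 7.72e-06), fell in both weeks without overlap and by P21 lay below both P7 inputs, with a change of -1.44 ± 0.08 (limma adjusted p = 1.33e-07) from P7 to P21. Efna4 fell in the first week by -1.80 ± 0.13 (limma adjusted p = 1.97e-06), from 3.35 to 4.28 TPM to 0.229 to 0.518 TPM. The opposite course was that of Efna1, which was lower in P7 IP than in input (-1.35 ± 0.14, limma adjusted p = 1.26e-05) and rose in the second week (0.55 ± 0.13, limma adjusted p = 0.0104), from 1.57 to 2.53 TPM at P14 to 2.92 to 3.63 TPM at P21. Efna5, a cue of topographic maps, was at 8.89 to 12.4 TPM at P7 and 13.5 to 14.1 TPM at P14. Its rise (0.32 ± 0.11, limma adjusted p = 0.036) was not called without P7 IP replicate 1 (0.19, adjusted p = 0.116) or any one of the P14 libraries (adjusted p = 0.0659 to 0.0861).

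EphA receptors, which bind mainly ephrin-As, were lower in P7 IP than in input for 5 of 7 genes and higher for none, beside 51.1% of all genes lower. Of these 5 calls, that of Epha10 held under all 21 alternatives, and that of Epha6 (-0.30 ± 0.12, limma adjusted p = 0.0465) was lost in 14 of them. Epha4 (ENSMUSG00000026235), a receptor that binds ligands of both classes and the EphA gene of highest level in IP, stood at 47.0 and 49.0 TPM in input and 29.9, 37.0 and 45.3 TPM in P7 IP. Epha4 was then at 54.9, 53.1 and 55.6 TPM in P14 IP and 44.7, 39.4 and 52.0 TPM in P21 IP. The P7 IP libraries lay below both inputs with a wide spread, and all P14 libraries lay above those of P7 and of P21. Its rise in the first week was 0.55 ± 0.13 (limma adjusted p = 0.00575), and its second step of -0.27 ± 0.13 (limma adjusted p = 0.163) did not pass. The change from input to P7 IP (-0.37 ± 0.15, limma adjusted p = 0.0459) no longer passed in 13 of 21 alternative settings and was 0.03 with median-of-ratios scaling. Epha10 (ENSMUSG00000028876), an Eph receptor that lacks kinase activity, stood at 11.9 and 12.9 TPM in input and 4.34, 4.75 and 4.94 TPM in P7 IP. Epha10 was then at 9.07, 8.72 and 8.97 TPM in P14 IP and 11.2, 12.2 and 12.1 TPM in P21 IP. It was lower in P7 IP (-1.24 ± 0.08, limma adjusted p = 2.97e-07), rose in each week (0.81 ± 0.07, limma adjusted p = 5.4e-06 and 0.37 ± 0.07, limma adjusted p = 0.0031) with no overlap between neighbouring ages, and at P21 was near the P7 input level.

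Epha8 (ENSMUSG00000028661) went the other way among the EphAs, at 11.4 and 9.15 TPM in input and 6.74, 7.66 and 6.35 TPM in P7 IP. Epha8 was then at 2.56, 3.06 and 2.57 TPM in P14 IP and 1.55, 1.80 and 1.85 TPM in P21 IP. Each group lay below the one before it, with log2 changes of -0.51 ± 0.12 (limma adjusted p = 0.00311), -1.08 ± 0.11 (limma adjusted p = 1.47e-05) and -0.45 ± 0.11 (limma adjusted p = 0.0109). The first of these was 0.05 after quantile normalisation. Epha3 fell in the first week (-0.58 ± 0.09, limma adjusted p = 0.000317), from 4.85 to 5.24 TPM at P7 to 2.71 to 3.34 TPM at P14. It fell again in the second (-0.31 ± 0.09, limma adjusted p = 0.0238), a call that was lost in 6 alternatives. Epha5, a receptor of ephrin-A5, was level in the first week, at 44.0 to 46.0 TPM at P7 and 43.3 to 46.0 TPM at P14, and fell in the second (-0.55 ± 0.05, limma adjusted p = 5.64e-05) to 29.1 to 30.8 TPM. Epha6 rose in the first week (0.37 ± 0.11, limma adjusted p = 0.0143). That rise no longer passed once the first P7 library (adjusted p = 0.0547) or the first P14 library was left out (adjusted p = 0.0503). Epha7 passed in none of the 4 comparisons. The summed EphA TPM was 127 ± 7.47 at P7, 142 ± 2.63 at P14 and 119 ± 7.93 at P21 (SD, n = 3), while the share of Epha10 in it went from 3.67% to 9.98% and that of Epha8 from 5.45% to 1.461%.

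EphB receptors bind ephrin-Bs and take part in spine and synapse formation. Ephb6 (ENSMUSG00000029869), a kinase-inactive member and the EphB gene of highest level in IP, stood at 46.0 and 47.2 TPM in input and 30.3, 34.6 and 33.5 TPM in P7 IP. Ephb6 was then at 43.5, 45.2 and 46.2 TPM in P14 IP and 49.7, 46.9 and 53.4 TPM in P21 IP. P7 IP lay below input, and each later age lay above the one before it. It rose by 0.44 ± 0.06 (limma adjusted p = 0.00019) in the first week and by 0.59 ± 0.06 (limma adjusted p = 1.38e-05) over the 2 weeks. Its second step of 0.15 ± 0.06 (limma adjusted p = 0.107) did not pass, and its lower level in P7 IP (-0.50 ± 0.07, limma adjusted p = 0.000101) did not pass with median-of-ratios scaling (-0.09, adjusted p = 0.171). Ephb3 (ENSMUSG00000005958) stood at 11.4 and 13.2 TPM in input and 4.77, 4.65 and 5.42 TPM in P7 IP. Ephb3 was then at 12.1, 10.9 and 11.4 TPM in P14 IP and 9.30, 9.51 and 9.77 TPM in P21 IP. In P7 IP it was under the level of both inputs (-1.16 ± 0.09, limma adjusted p = 1.11e-06), at P14 above every P7 IP library (1.07 ± 0.08, limma adjusted p = 2.06e-06) and at P21 below every P14 library (-0.24 ± 0.08, limma adjusted p = 0.0418). That last call was lost in 11 of 21 alternative settings. Ephb2, an ephrin-B receptor of excitatory synapses, fell in each week (-0.46 ± 0.09, limma adjusted p = 0.00212 and -0.49 ± 0.09, limma adjusted p = 0.00357), from 20.2 to 22.5 TPM at P7 to 9.31 to 11.9 TPM at P21. Ephb1 was at 20.1 to 21.0 TPM at P7 and 22.9 to 25.5 TPM at P14, a rise (0.23 ± 0.08, limma adjusted p = 0.0381) whose call was lost in 10 alternatives. Ephb4, a receptor known from venous endothelium, stayed under 1 TPM in all IP libraries and was at 3.49 to 3.58 TPM in input.

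Secreted class 3 semaphorins, which act through neuropilins, were lower in P7 IP than in input for all 6 described genes, beside 51.1% of all genes. Of these 6 calls, 2 held under all alternatives. Sema3d, among the 6, reached 1 TPM only in input and so could pass the filter only by being lower in IP. The family summed to 42.6 ± 0.196 TPM in input (SD, n = 2) and 23.6 ± 1.29 in P7 IP (SD, n = 3). Sema3a (ENSMUSG00000028883), a repellent of cortical axons and the class 3 gene of highest level over the IP libraries, stood at 7.75 and 7.79 TPM in input and 4.64, 5.71 and 6.63 TPM in P7 IP. Sema3a was then at 6.90, 6.95 and 7.47 TPM in P14 IP and 6.23, 5.11 and 6.43 TPM in P21 IP. All P7 IP libraries lay below the inputs, but the log2 change of -0.41 ± 0.13 (limma adjusted p = 0.0153) no longer passed without either input (adjusted p = 0.064 and 0.0671) and was 0.18 after quantile normalisation. None of its age comparisons passed. Sema3f, a ligand of neuropilin-2 that acts in spine pruning, fell in the first week (-0.89 ± 0.10, limma adjusted p = 2.54e-05), from 7.88 to 9.77 TPM to 4.12 to 4.63 TPM. Sema3c fell in both weeks (-0.46 ± 0.10 and -0.75 ± 0.10), whereas Sema3e, the ligand of plexin-D1, rose in the first (0.65 ± 0.15, limma adjusted p = 0.00439), from 1.34 to 2.34 TPM to 3.36 to 3.81 TPM. The share of Sema3e in the summed class 3 TPM was thus 8.10% at P7 and 20.8% at P21, and that of Sema3f 38.1% and 23.6%.

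The class 4 semaphorin Sema4g (ENSMUSG00000025207) had the largest fall of the guidance genes on the log2(TPM + 1) scale. In TPM with nothing added it fell 11.6-fold between the means of P7 and P21, and the low Efna4 fell 15.8-fold, from 3.76 to 0.239 TPM. Sema4g stood at 68.3 and 47.7 TPM in input and 84.5, 83.1 and 76.2 TPM in P7 IP. Sema4g was then at 18.5, 24.0 and 24.5 TPM in P14 IP and 6.83, 7.14 and 7.02 TPM in P21 IP. The P7 IP libraries lay above both inputs and each later age lay below the one before it, with no overlap. The log2 change was -1.83 ± 0.13 (limma adjusted p = 1.72e-06) in the first week, -1.53 ± 0.13 (limma adjusted p = 4.25e-05) in the second and -3.36 ± 0.13 (limma adjusted p = 1.46e-08) over both. Its higher level in P7 IP than in input (0.50 ± 0.15, limma adjusted p = 0.0104) was not called without input replicate 2 (0.25, adjusted p = 0.152), the Cre-negative library, which holds the lower of the 2 input levels. Sema4c (ENSMUSG00000026121), a ligand of plexin-B2, stood at 17.4 and 15.1 TPM in input and 11.4, 9.37 and 9.29 TPM in P7 IP. Sema4c was then at 3.48, 3.18 and 3.87 TPM in P14 IP and 3.39, 3.43 and 2.92 TPM in P21 IP. It fell in the first week (-1.29 ± 0.10, limma adjusted p = 3.64e-06) and then overlapped between P14 and P21, with a second step that differed from the first by 1.20 ± 0.18 (limma adjusted p = 0.00132).

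Other class 4 genes changed less. Sema4b fell in both weeks (-0.72 ± 0.07 and -0.32 ± 0.07) and so did Sema4f (-0.31 ± 0.06, limma adjusted p = 0.00213 and -0.19 ± 0.06, limma adjusted p = 0.0455), whose second fall was lost in 12 alternatives. Sema4d, the ligand of plexin-B1, was lower in P7 IP than in input (-0.71 ± 0.07, limma adjusted p = 5.03e-06), rose in the first week (0.26 ± 0.06, limma adjusted p = 0.00439) from 27.5 to 29.3 TPM to 33.0 to 36.4 TPM and fell in the second (-0.18 ± 0.06, limma adjusted p = 0.0488), a fall that was lost in 17 of 21 alternatives. Sema4a was at 18.6 to 23.2 TPM at P7 and 24.9 to 26.5 TPM at P21, and its rise over the 2 weeks (0.28 ± 0.09, limma adjusted p = 0.0208) was not called without P7 IP replicate 3 (adjusted p = 0.0792), P21 IP replicate 1 (adjusted p = 0.0527) or P21 IP replicate 3 (adjusted p = 0.059). Through these courses Sema4g made up 44.7% of summed class 4 TPM in P7 IP, 19.5% at P14 and 7.49% at P21, and Sema4d 15.6%, 29.9% and 32.2%.

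**Figure D4:**
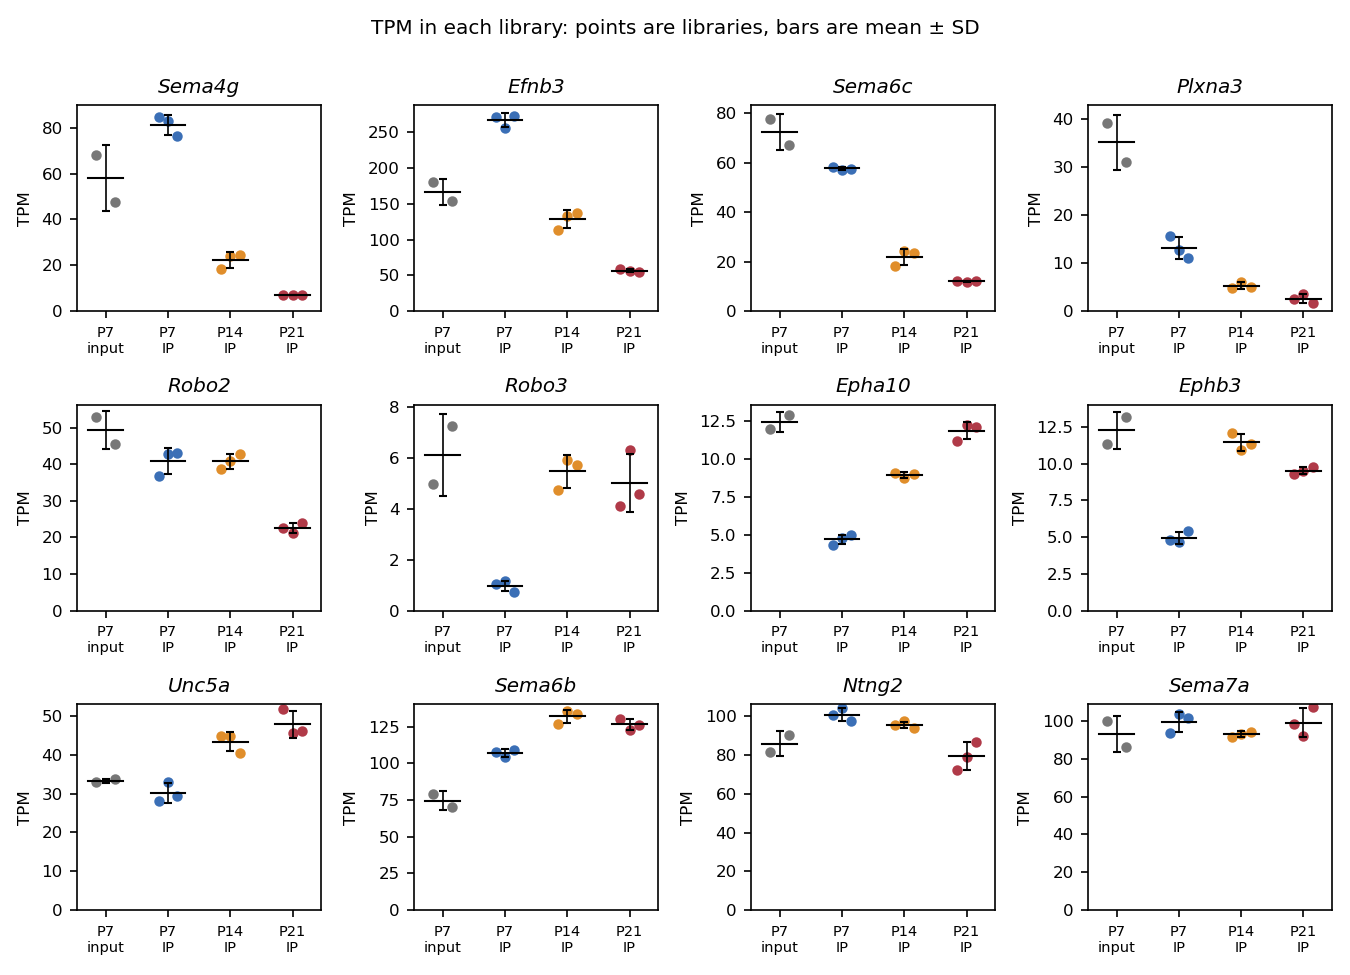
TPM of 12 guidance genes in each of the 11 libraries (points), with the mean and SD of each group (bars); each panel has its own axis starting at 0. Sema4g, Efnb3, Sema6c and Plxna3 go down at each age, Robo2 goes down between P14 and P21, Robo3, Epha10, Ephb3 and Unc5a are higher at P14 than at P7, and the groups of Sema7a overlap.

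In class 6, transmembrane semaphorins that bind plexin-As, a single gene took over most of the family's transcripts. Sema6b (ENSMUSG00000001227) stood at 79.2 and 70.0 TPM in input and 108, 104 and 109 TPM in P7 IP. Sema6b was then at 127, 136 and 134 TPM in P14 IP and 130.3, 123 and 126 TPM in P21 IP. It was above both inputs in every P7 IP library (0.52 ± 0.06, limma adjusted p = 2.11e-05), rose in the first week (0.30 ± 0.05, limma adjusted p = 0.00082) and overlapped between P14 and P21. Sema6c (ENSMUSG00000038777) stood at 77.6 and 67.3 TPM in input and 58.3, 57.1 and 57.5 TPM in P7 IP. Sema6c was then at 18.1, 24.2 and 23.6 TPM in P14 IP and 12.1, 11.9 and 12.2 TPM in P21 IP. It fell without overlap in both weeks (-1.36 ± 0.10, limma adjusted p = 1.61e-06 and -0.80 ± 0.10, limma adjusted p = 0.000283). Against input it was lower in P7 IP by -0.32 ± 0.11 (limma adjusted p = 0.0211), a difference that no longer passed without input replicate 1 (-0.22, adjusted p = 0.183), and its change was 0.09 with median-of-ratios scaling. Sema6a (ENSMUSG00000019647) stood at 24.1 and 22.0 TPM in input and 11.6, 13.7 and 14.3 TPM in P7 IP. Sema6a was then at 6.30, 8.45 and 9.15 TPM in P14 IP and 3.49, 3.74 and 4.21 TPM in P21 IP. Every group of libraries lay below the one before, with changes of -0.76 ± 0.14 (limma adjusted p = 0.000632), -0.67 ± 0.13 (limma adjusted p = 0.00119) and -0.89 ± 0.13 (limma adjusted p = 0.000693).

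Sema6d (ENSMUSG00000027200), known as a ligand of plexin-A1, stood at 21.1 and 21.5 TPM in input and 5.45, 6.59 and 5.98 TPM in P7 IP. Sema6d was then at 5.20, 5.06 and 5.19 TPM in P14 IP and 3.36, 4.06 and 4.36 TPM in P21 IP. The P7 IP libraries lay far below both inputs (-1.67 ± 0.10, limma adjusted p = 2.74e-07), and the fall from P7 to P21 was -0.51 ± 0.09 (limma adjusted p = 0.000633). Sema6b accordingly made up 39.0% of class 6 TPM in input, 58.2% in P7 IP, 79.1% at P14 and 86.4% at P21, whereas Sema6c went from 31.3% to 8.26% between P7 and P21 IP. Sema7a (ENSMUSG00000038264), a lipid-anchored semaphorin whose receptors include plexin-C1 and integrins, stood at 99.97 and 86.4 TPM in input and 93.6, 104 and 102 TPM in P7 IP. Sema7a was then at 91.5, 93.2 and 94.5 TPM in P14 IP and 98.3, 91.9 and 108 TPM in P21 IP. Its groups overlapped between ages and it passed in none of the 4 comparisons. With median-of-ratios scaling it was higher in P7 IP than in input (0.51, adjusted p = 5.68e-05) and passed in the second week (0.21, adjusted p = 0.0242). Of the class 5 genes, Sema5b (ENSMUSG00000052133) stood at 18.4 and 20.5 TPM in input and 5.80, 4.90 and 5.74 TPM in P7 IP. Sema5b was then at 4.55, 6.88 and 6.17 TPM in P14 IP and 4.04, 4.22 and 4.94 TPM in P21 IP. It was far lower in IP than in input (-1.66 ± 0.14, limma adjusted p = 2.95e-06), and so was Sema5a (-1.19 ± 0.12, limma adjusted p = 1.09e-05), at 6.17 to 6.71 TPM in input and 1.97 to 2.51 TPM in P7 IP.

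Plexin-As, the signalling receptors for class 3 and class 6 semaphorins, were lower in P7 IP than in input for all 4 genes, beside 51.1% of all genes. Plxna1 (ENSMUSG00000030084) stood at 59.7 and 49.3 TPM in input and 35.6, 36.4 and 39.1 TPM in P7 IP. Plxna1 was then at 20.0, 21.3 and 22.1 TPM in P14 IP and 12.2, 11.5 and 13.7 TPM in P21 IP. Its groups descended without overlap, by -0.54 ± 0.09 (limma adjusted p = 0.000423), -0.78 ± 0.08 (limma adjusted p = 2.69e-05) and -0.72 ± 0.08 (limma adjusted p = 0.000243), of which the first did not pass with median-of-ratios scaling (-0.14, adjusted p = 0.15). Plxna3 (ENSMUSG00000031398), a partner of neuropilin-2 in Sema3F signalling, stood at 39.2 and 31.1 TPM in input and 15.6, 12.8 and 11.0 TPM in P7 IP. Plxna3 was then at 4.84, 6.05 and 5.05 TPM in P14 IP and 2.46, 3.54 and 1.74 TPM in P21 IP. It too descended at each step, by -1.36 ± 0.20 (limma adjusted p = 0.000154), -1.15 ± 0.18 (limma adjusted p = 0.000406) and -0.84 ± 0.18 (limma adjusted p = 0.00682). Plxna2, a receptor for Sema6A and Sema6B, took another course, at 10.6, 11.1 and 12.6 TPM in P7 IP, 16.5, 16.0 and 15.1 TPM in P14 IP and 11.0, 11.8 and 11.6 TPM in P21 IP. It rose in the first week (0.44 ± 0.07, limma adjusted p = 0.000476) and fell in the second (-0.43 ± 0.07, limma adjusted p = 0.00167), ending at its P7 level (0.01 ± 0.07, limma adjusted p = 0.923).

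Summed plexin-A TPM was 70.5 ± 1.63 at P7, 50.2 ± 0.655 at P14 and 33.0 ± 0.974 at P21 (SD, n = 3). Within that sum the share of Plxna2 went from 16.2% to 31.6% and 34.8%, that of Plxna1 from 52.4% to 42.0% and 37.8%, and that of Plxna3 from 18.6% to 10.6% and 7.86%. Plxna4, the main plexin-A for Sema3A, fell over the 2 weeks by -0.43 ± 0.08 (limma adjusted p = 0.000669). Neuropilins, the ligand-binding partners of plexin-As, moved apart as well. Nrp1 (ENSMUSG00000025810), which binds Sema3A, stood at 15.5 and 15.7 TPM in input and 11.7, 13.4 and 12.3 TPM in P7 IP. Nrp1 was then at 12.1, 10.6 and 9.92 TPM in P14 IP and 10.5, 9.27 and 10.2 TPM in P21 IP. Its fall from P7 to P21 IP was small (-0.29 ± 0.08, limma adjusted p = 0.0119) and was not called without P7 IP replicate 2 (adjusted p = 0.0503), and its lower level in P7 IP than in input (-0.31 ± 0.09, limma adjusted p = 0.0127) was not called without input replicate 1 or 2 (adjusted p = 0.0522 and 0.0608) and was 0.08 and 0.18 under the other scalings. Nrp2, which binds Sema3F, stood at 16.7, 15.9 and 16.1 TPM in P7 IP, 8.51, 8.60 and 7.81 TPM in P14 IP and 6.29, 6.02 and 5.83 TPM in P21 IP. It fell in both weeks (-0.89 ± 0.06, limma adjusted p = 1.2e-06 and -0.40 ± 0.06, limma adjusted p = 0.00089), so that Nrp1 made up 43.4%, 56.6% and 62.3% of neuropilin TPM at P7, P14 and P21.

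**Figure D5:**
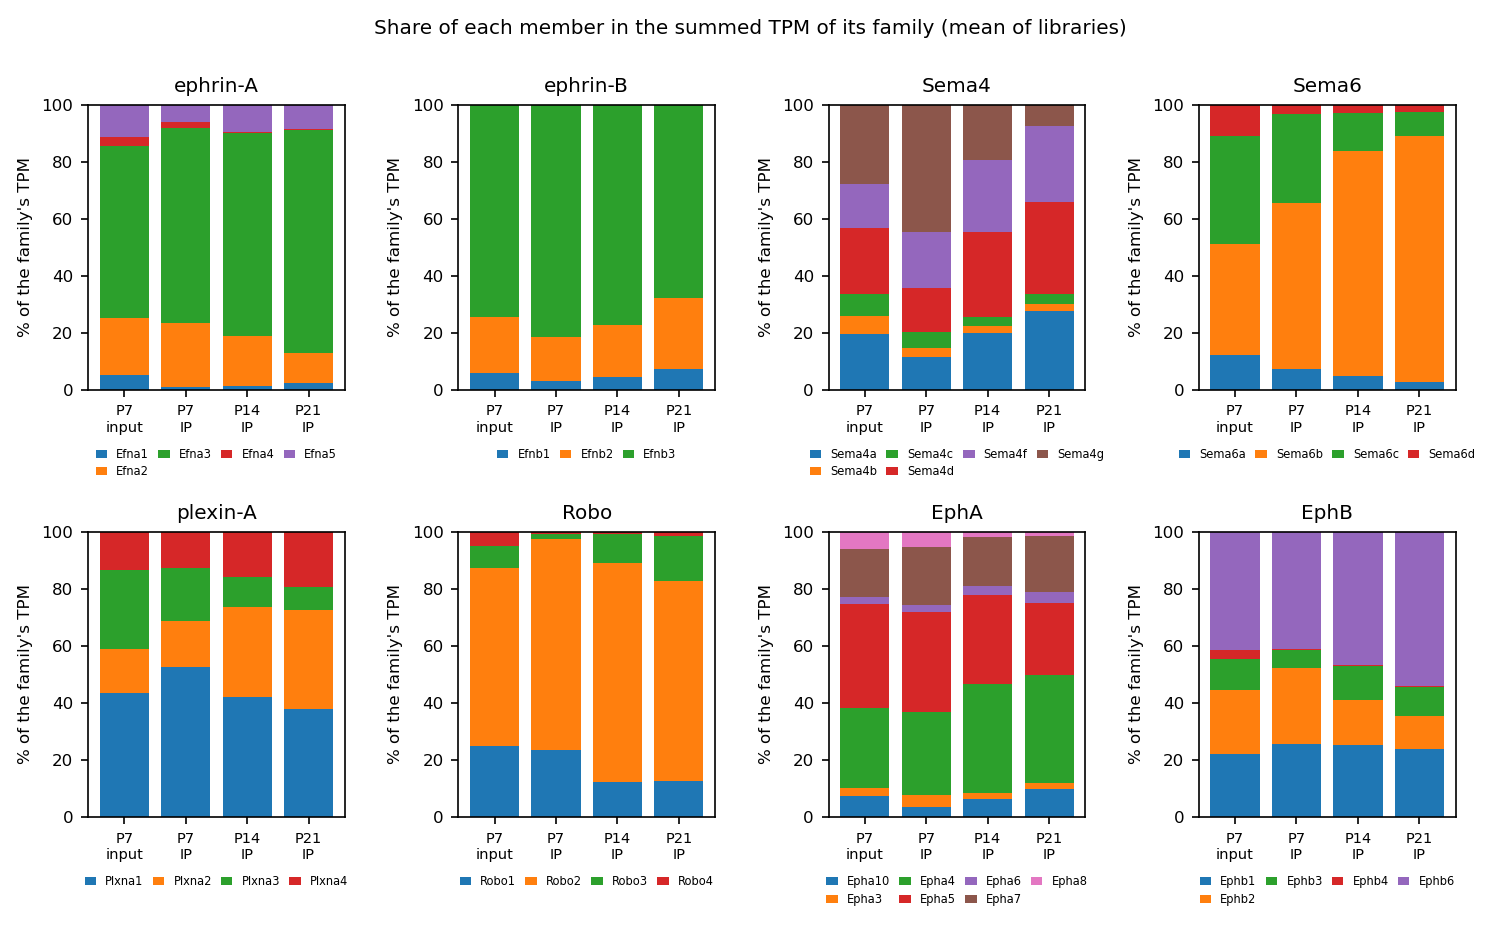
Share of each gene in the summed TPM of its family, in percent (stacked bars, mean of the libraries in each group), for 8 guidance families in input and in IP at the 3 ages. Sema6b takes up the class 6 semaphorins (58.2% to 86.4% from P7 to P21 IP), and Sema4g shrinks within class 4 (44.7% to 7.49%).

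Plexin-Bs, receptors of class 4 semaphorins, were also lower in P7 IP than in input for all 3 genes, beside 51.1% of all genes. Plxnb3 reached 1 TPM only in input and so could pass the filter only by being lower in IP. Plxnb1 (ENSMUSG00000053646), the receptor of Sema4D, had the largest difference from input of the guidance genes on the log2(TPM + 1) scale. In TPM with nothing added Plxnb1 was 4.31-fold lower in P7 IP, and low genes differed more, among them Plxnb3 (14.1-fold), Ephb4 (8.68-fold) and Robo4 (7.80-fold), all under 1 TPM in the IP. Plxnb1 stood at 17.6 and 17.3 TPM in input and 4.41, 3.83 and 3.93 TPM in P7 IP. Plxnb1 was then at 2.42, 2.44 and 2.27 TPM in P14 IP and 1.66, 2.70 and 2.25 TPM in P21 IP. The P7 IP libraries lay far below both inputs (-1.87 ± 0.13, limma adjusted p = 5.34e-07), and the P14 libraries lay below those of P7 (-0.58 ± 0.11, limma adjusted p = 0.00165). Plxnb2 (ENSMUSG00000036606), a receptor of Sema4C that is also widely expressed outside neurons, stood at 41.6 and 36.7 TPM in input and 23.1, 22.3 and 13.1 TPM in P7 IP. Plxnb2 was then at 15.4, 17.6 and 9.50 TPM in P14 IP and 11.3, 15.7 and 12.7 TPM in P21 IP. P7 IP replicate 3 and P14 IP replicate 3 were low beside the other libraries of their age. Its change from input (-1.01 ± 0.27, limma adjusted p = 0.00662) was not called without input replicate 1 (adjusted p = 0.0513). The change of -0.50 ± 0.24 (limma adjusted p = 0.0991) from P7 to P21 did not pass, but passed without P7 IP replicate 3 (-0.75, adjusted p = 0.0145), as did the first step (-0.69, adjusted p = 0.0268). Plxnb3, a plexin known from oligodendrocytes, rose in the first week (0.48 ± 0.10, limma adjusted p = 0.00302) but stayed under 1 TPM in the IP, at 0.0726 to 0.12 TPM at P7 and 0.468 to 0.611 TPM at P14, beside the rise in summed oligodendrocyte markers given above.

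Plxnd1 (ENSMUSG00000030123), the receptor of Sema3E, stood at 69.8 and 84.9 TPM in input and 46.4, 47.2 and 30.8 TPM in P7 IP. Plxnd1 was then at 37.8, 44.2 and 39.8 TPM in P14 IP and 36.6, 31.5 and 27.7 TPM in P21 IP. P7 IP lay below input (-0.90 ± 0.18, limma adjusted p = 0.00102), P7 IP replicate 3 was the lowest of its group, P7 and P14 overlapped, and the step from P14 to P21 (-0.34 ± 0.16, limma adjusted p = 0.141) did not pass. Without that library the change from P7 to P21 passed (-0.55, adjusted p = 0.00345). Plxnc1, a receptor of Sema7A, fell by -0.42 ± 0.09 (limma adjusted p = 0.00289) from P7 to P21.

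Slits, secreted repellents, were lower in P7 IP than in input for all 3 genes, beside 51.1% of all genes. Of these calls 2 held under all 21 alternatives, and that of Slit3 was lost in 1. Slit1 (ENSMUSG00000025020), the brain-enriched member and the highest of the 3, stood at 20.3 and 20.5 TPM in input and 8.37, 9.22 and 9.99 TPM in P7 IP. Slit1 was then at 10.0, 10.7 and 11.5 TPM in P14 IP and 10.7, 9.81 and 9.64 TPM in P21 IP. IP libraries of every age lay below both inputs (-1.07 ± 0.09, limma adjusted p = 1.68e-06 at P7), and none of the age changes passed. Slit3 (ENSMUSG00000056427) stood at 4.94 and 6.21 TPM in input and 2.43, 3.06 and 3.86 TPM in P7 IP. Slit3 was then at 5.59, 5.65 and 5.92 TPM in P14 IP and 5.51, 4.89 and 5.83 TPM in P21 IP. The P14 libraries lay above all P7 IP libraries (0.72 ± 0.13, limma adjusted p = 0.000856), and the second step was lower than the first by -0.79 ± 0.22 (limma adjusted p = 0.0264). Slit2 was at 2.13 to 3.04 TPM in P7 IP and 3.12 to 3.52 TPM at P14, and the call of its rise (0.33 ± 0.12, limma adjusted p = 0.0434) was lost in 12 of 21 alternatives.

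The Robo receptors each took a course of their own. Robo3 (ENSMUSG00000032128), a divergent Robo that controls midline crossing of commissural axons, stood at 4.99 and 7.27 TPM in input and 1.03, 1.14 and 0.736 TPM in P7 IP. Robo3 was then at 4.74, 5.95 and 5.75 TPM in P14 IP and 4.13, 6.33 and 4.61 TPM in P21 IP. It was near 1 TPM in P7 IP, below both inputs (-1.84 ± 0.18, limma adjusted p = 7.78e-06), and rose by P14 (1.72 ± 0.16, limma adjusted p = 1.19e-05), after which the ages overlapped. Its second step was lower than its first by -1.83 ± 0.28 (limma adjusted p = 0.00161). Robo2 (ENSMUSG00000052516), a Slit receptor and the Robo gene of highest level, stood at 53.1 and 45.7 TPM in input and 36.9, 42.9 and 43.1 TPM in P7 IP. Robo2 was then at 38.6, 40.9 and 43.0 TPM in P14 IP and 22.6, 21.3 and 23.9 TPM in P21 IP. P7 and P14 overlapped, and all P21 libraries lay below all P14 libraries (-0.82 ± 0.08, limma adjusted p = 8.93e-05). The lower level in P7 IP than in input (-0.26 ± 0.09, limma adjusted p = 0.0224) was not called without input replicate 1 (adjusted p = 0.218) or P7 IP replicate 1 (adjusted p = 0.0696) and was 0.14 with median-of-ratios scaling. Robo1 fell in both weeks (-0.88 ± 0.12, limma adjusted p = 0.000144 and -0.59 ± 0.12, limma adjusted p = 0.00485), from 12.1 to 14.6 TPM at P7 to 3.47 to 4.70 TPM at P21. Robo3 therefore made up 1.77% of Robo TPM in P7 IP, 10.3% at P14 and 15.6% at P21. Robo4, known from endothelium, stayed under 1 TPM in the IP and was at 3.72 to 4.12 TPM in input.

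Secreted netrins were low in the pull-down. Ntn1 (ENSMUSG00000020902), the ligand of Dcc and Unc5 receptors, stood at 5.06 and 5.89 TPM in input and 0.854, 0.782 and 1.14 TPM in P7 IP. Ntn1 was then at 0.748, 0.645 and 0.696 TPM in P14 IP and 0.555, 0.656 and 0.642 TPM in P21 IP. Every IP library lay far below both inputs (-1.75 ± 0.11, limma adjusted p = 4.11e-07 at P7), and no age change passed. Ntn3 (ENSMUSG00000117406) stood at 5.15 and 5.70 TPM in input and 4.22, 4.07 and 3.84 TPM in P7 IP. Ntn3 was then at 3.45, 3.83 and 3.31 TPM in P14 IP and 4.01, 4.75 and 3.72 TPM in P21 IP. P7 IP lay below input (-0.35 ± 0.10, limma adjusted p = 0.0124), a difference that no longer passed without input replicate 2 (adjusted p = 0.0964), and the change was 0.25 after quantile normalisation. Ntn5 (ENSMUSG00000070564), a little-studied netrin, stood at 0.293 and 0.432 TPM in input and 0.0713, 0.032 and 0.0383 TPM in P7 IP. Ntn5 was then at 0.488, 0.66 and 0.579 TPM in P14 IP and 2.26, 2.34 and 3.08 TPM in P21 IP. It passed the filter on low values only through P21, where it had to be high, so its values are given as a description with no test. Each age lay above the one before, and the P21 level was above input. In the RefSeq table of assembly GRCm38.p6 the spans of 38 of the 68 genes overlap that of another gene, mostly a noncoding one. Those of 6 overlap a protein-coding gene, Ntn5 with Sec1, Ntn3 with Tbc1d24, Unc5a with Hk3, Sema3b with Lsmem2, and Epha5 and Plxna1 with a gene model each. The sources used here do not say whether the deposited values use strand. Whole spans were compared, introns included, so values of such pairs may mix where the genes overlap, which was not tested.

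The netrin-Gs are lipid-anchored relatives that do not bind Dcc but the synaptic adhesion proteins Lrrc4c (partner of netrin-G1) and Lrrc4 (partner of netrin-G2). Ntng2 (ENSMUSG00000035513) stood at 81.5 and 90.4 TPM in input and 101, 105 and 97.6 TPM in P7 IP. Ntng2 was then at 95.7, 97.4 and 94.2 TPM in P14 IP and 72.5, 79.0 and 87.0 TPM in P21 IP. P7 IP lay above input by little (0.23 ± 0.07, limma adjusted p = 0.0179), a difference that no longer passed without input replicate 1 (0.16, adjusted p = 0.163) or P7 IP replicate 2 (adjusted p = 0.055). P21 libraries lay below those of P14 (-0.27 ± 0.07, limma adjusted p = 0.0134), which did not pass under the other scalings (-0.15, adjusted p = 0.0943 and -0.20, adjusted p = 0.0626). Ntng1 stood at 9.25, 11.8 and 11.0 TPM in P7 IP, 15.1, 14.2 and 15.9 TPM in P14 IP and 12.6, 11.3 and 12.2 TPM in P21 IP. It rose in the first week (0.46 ± 0.09, limma adjusted p = 0.00155) and fell in the second (-0.30 ± 0.09, limma adjusted p = 0.0306), and the fall was not called without P14 IP replicate 1 or 3 (adjusted p = 0.0675 and 0.105) or P21 IP replicate 2 or 3 (adjusted p = 0.105 and 0.056). In the same libraries Lrrc4c was higher in P7 IP than in input, at 67.6 against 45.1 TPM (0.56 ± 0.11, limma adjusted p = 0.00109).

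Of the netrin receptors, Unc5a (ENSMUSG00000025876) stood at 32.9 and 33.7 TPM in input and 28.04, 33.0 and 29.4 TPM in P7 IP. Unc5a was then at 44.8, 44.7 and 40.5 TPM in P14 IP and 51.8, 45.7 and 46.0 TPM in P21 IP. It did not differ from input by the test at P7 (-0.14 ± 0.08, limma adjusted p = 0.148), rose in the first week without overlap (0.51 ± 0.07, limma adjusted p = 0.000203) and was higher at P21 than at P7 (0.65 ± 0.07, limma adjusted p = 2.14e-05). Dcc, the attractive netrin receptor, was at 4.52 to 5.13 TPM in input and 2.09 to 2.43 TPM in P7 IP (-0.83 ± 0.11, limma adjusted p = 5.8e-05), and Unc5c was lower in P7 IP by -0.66 ± 0.10 (limma adjusted p = 0.000136). The falls of Dcc (-0.27 ± 0.10, limma adjusted p = 0.0349) and Unc5c (-0.26 ± 0.09, limma adjusted p = 0.0249) from P7 to P21 were each lost when single libraries were left out, Dcc without P7 IP replicate 1 or 3 (adjusted p = 0.0725 and 0.103) or P21 IP replicate 1 or 2 (adjusted p = 0.0946 and 0.118), and Unc5c without P7 IP replicate 2 or 3 (adjusted p = 0.0753 and 0.0756) or P21 IP replicate 2 (adjusted p = 0.0913). Unc5d passed in no age comparison, and Unc5b, known from endothelium, stayed under 1 TPM in the IP. Unc5a made up 71.8% of the summed TPM of Dcc and the Unc5 genes in P7 IP, 78.2% at P14 and 82.0% at P21.

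Genes that act beside these ligands and receptors moved in both directions too. Of 33 other guidance cues and co-receptors, 4 were higher and 22 lower in P7 IP than in input, 6 rose and 15 fell from P7 to P14, none rose and 11 fell from P14 to P21, and 4 rose and 20 fell over both weeks, with median log2 changes of -0.52, -0.17, -0.18 and -0.34. The shares of all genes higher and lower were 18.6% and 51.1%, 26.7% and 22.8%, 8.53% and 19.7%, and 27.3% and 32.6% in that order, with medians of -0.33, 0.03, -0.08 and -0.04. Cxcr4, a chemokine receptor that guides migrating neurons, was lower in P7 IP, at 1.00 against 9.99 TPM (-2.46 ± 0.13, limma adjusted p = 9.58e-08). Draxin, a secreted antagonist of netrin signalling, fell from 6.85 to 0.175 TPM between P7 and P21 IP (-2.73 ± 0.13, limma adjusted p = 5.3e-08). Rgma, a lipid-anchored repellent, fell from 95.1 to 20.2 TPM (-2.18 ± 0.06, limma adjusted p = 5.38e-09), and its receptor Neo1, a relative of Dcc, fell in the first week from 44.9 to 16.5 TPM (-1.39 ± 0.08, limma adjusted p = 7.17e-07). Nrcam, an adhesion molecule that joins neuropilin complexes, rose in the first week from 98.2 to 211 TPM (1.09 ± 0.05, limma adjusted p = 2.13e-07).

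Of 62 intracellular effectors of guidance receptors, 6 were higher and 42 lower in P7 IP than in input, 14 rose and 26 fell from P7 to P14, 8 rose and 28 fell from P14 to P21, and 17 rose and 34 fell over both weeks, with medians of -0.52, -0.11, -0.17 and -0.29. These counts stand beside the same shares of all genes, and the 17 rises over both weeks are 27.4% of the list against 27.3% of all genes. The largest called difference from input was that of Myo10, a filopodial myosin, which was lower in P7 IP, at 1.48 against 13.0 TPM (-2.50 ± 0.20, limma adjusted p = 1.7e-06), as was Rock1, a kinase that drives actomyosin contraction, at 2.18 against 11.2 TPM (-1.94 ± 0.10, limma adjusted p = 8.35e-08). Evl, an Ena/VASP protein that promotes actin filament growth, was higher in P7 IP, at 973 against 362 TPM (1.43 ± 0.08, limma adjusted p = 1.24e-07), as was Chn1, a Rac-inactivating protein downstream of EphA4, at 439.6 against 234 TPM (0.91 ± 0.09, limma adjusted p = 1.09e-05). Kalrn, a protein that acts in dendritic spines downstream of EphB receptors, rose from 30.7 to 150.5 TPM between P7 and P21 (2.27 ± 0.11, limma adjusted p = 6.29e-08). Mical2, of the family of actin-oxidising enzymes downstream of plexins, rose from 113 to 614 TPM (2.43 ± 0.11, limma adjusted p = 3.58e-08). Dpysl3, a collapsin response mediator protein, fell from 612 to 16.1 TPM (-5.16 ± 0.13, limma adjusted p = 3.13e-09), the largest age change of the list. Trim67, a ubiquitin ligase that binds Dcc, fell from 37.7 to 0.71 TPM (-4.49 ± 0.12, limma adjusted p = 4.1e-09).

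RefSeq promoter windows of 300 bases, from 250 before to 50 after the start (assembly GRCm38.p6), were found for 58 of the 68 genes, 74 windows in all. Their median number of CG dinucleotides was 20.0, close to the 19.0 of the 15166 windows of tested genes, against 7.0 over all 32851 windows in the table. It ran from 2 to 56 among them, so the windows do not share one composition. Their median GC content was 64.3%, against 60.3% for tested genes and 52.7% for all windows. The letters TATAAA, on either strand, were found in 2.70% of them, 7.62% of the windows of tested genes and 13.6% of all windows. CAGATG, a form of the E-box bound by NEX and related factors, was found in 6.76%, 12.4% and 17.2%. Among genes that rose, fell or passed neither way from P7 to P21, the median CG count was 16.0, 22.5 and 23.0. A match of letters is a description and not a binding site. The windows of the gene with the largest fall between P7 and P21 on the log2(TPM + 1) scale and of the Robo gene that rose are shown, 5′ to 3′ along the gene's strand, with every CG in capitals. That of Sema4g lies at chr19:44989094-44989393 on the plus strand and holds 30 CG, and that of Robo3 at chr9:37433126-37433425 on the minus strand and holds 17.
Sema4g: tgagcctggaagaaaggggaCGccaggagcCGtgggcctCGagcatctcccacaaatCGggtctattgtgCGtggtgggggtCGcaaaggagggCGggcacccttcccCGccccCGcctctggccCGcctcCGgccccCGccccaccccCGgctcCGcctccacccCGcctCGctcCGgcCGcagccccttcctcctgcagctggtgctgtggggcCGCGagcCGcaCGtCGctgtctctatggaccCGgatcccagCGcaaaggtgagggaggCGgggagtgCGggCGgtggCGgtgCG
Robo3: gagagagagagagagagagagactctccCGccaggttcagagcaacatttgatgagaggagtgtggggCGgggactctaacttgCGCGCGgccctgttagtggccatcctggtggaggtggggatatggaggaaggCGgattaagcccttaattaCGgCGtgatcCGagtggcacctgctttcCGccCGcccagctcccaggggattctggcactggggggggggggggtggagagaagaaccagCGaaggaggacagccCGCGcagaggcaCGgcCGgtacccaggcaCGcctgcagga
Neither window holds TATAAA or CAGATG on either strand, and the deposited values, which are per gene, do not show which start was used.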

How the data were processed

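Polyadenylated RNA of 9 IP and 2 input libraries from cortex and hippocampus was sequenced on an Illumina instrument, per the labels' protocols. The authors deposited a single table with TPM per Ensembl gene for the 11 libraries. The submitters' processing notes list fastp 1.0.1, Salmon 1.10.0, DESeq2 1.46.0 and the mm39 build. The sources used here do not give their roles, the annotation release or the use of strand. TPM is divided by transcript length and library total, so a few abundant genes can shift all others, and it keeps no depth.

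Symbols were looked up by Ensembl identifier and found for 50886 of 77179. A gene entered the fit if 2 or more libraries held it at 1 TPM or more, which left 19008. Values were turned to log2 after adding 1 TPM, a step that understates changes of low genes. Group means of the 4 groups were fitted jointly by limma 3.58.1 (R 4.3.3), leaving 7 residual degrees of freedom, with trended empirical Bayes moderation. Benjamini-Hochberg adjustment ran over all genes in the fit. Errors of log2 changes are standard errors of this fit, and a gene was called at an adjusted p below 0.05.

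Besides P7 IP against input and the comparisons between IP ages, the weekly steps were compared with each other. There were 21 alternatives for each comparison. They changed the pseudocount (0.1 or 5 TPM), the filter (none, or a mean of at least 5 TPM), the scaling (median of ratios, quantiles, or leaving out mitochondrial, haemoglobin and ribosomal protein genes), the trend, the replicate block, the groups in the fit, or left out 1 library. The code was tested on simulated data.

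The guidance genes and the lists were chosen with earlier results of these data known. Values in every library are given for the 6 largest called rises and falls of each comparison with at least 5 TPM in the higher group, and for the gene of highest IP mean in each family. Of each list, up to 2 rises and 2 falls per comparison could be named. Ntn5, Plxna2, Nrp2 and Ntng1 were added after their values were seen. Promoters came from RefSeq (GRCm38.p6), and figures were drawn with matplotlib 3.10.9 under Python 3.11.15.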

Additional observations from a re-analysis of the deposited data

Results flagged for a closer look

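For 4 guidance genes the 2 weekly steps went in opposite directions and each step passed the test, with the P14 libraries above those of both P7 and P21, and the difference between the steps passed too. The second weekly step minus the first was -1.31 on the log2 scale for Ephb3 (limma adjusted p = 0.000314), -0.88 for Plxna2 (limma adjusted p = 0.00111), -0.76 for Ntng1 (limma adjusted p = 0.00614) and -0.44 for Sema4d (limma adjusted p = 0.0124). The difference for Sema4d did not pass with median-of-ratios scaling (-0.27, adjusted p = 0.115), with quantile normalisation (-0.29, adjusted p = 0.0897) or without P14 IP replicate 1 (-0.35, adjusted p = 0.0645). Under all 21 alternatives the fall of Plxna2 in the second week passed, whereas those of Ephb3, Ntng1 and Sema4d did not pass in 11, 7 and 17 of them. Epha4 had the same order of libraries and a difference between its steps that passed (-0.82, limma adjusted p = 0.0268, lost in 5 alternatives), but its second step did not pass.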

How the results depend on the processing

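Of the calls of single genes, 29 of 57 for P7 IP against input, 36 of 43 for P14 against P7, 20 of 28 for P21 against P14, 39 of 45 for P21 against P7 and 10 of 18 for unequal steps passed in the same direction under all 21 alternatives. Scaling had the widest effect on P7 IP against input, where the number of guidance genes that were higher went from 6 to 13 with median-of-ratios scaling and to 12 with quantile normalisation, and the number lower from 51 to 30 under each and to 30 among genes with a mean of at least 5 TPM. From P14 to P21 the number of rises went from 3 to 6 and 5 under these scalings and to 1 with the higher minimum, which left fewer genes tested, and from P7 to P21 the number of rises went from 13 to 6 with that minimum. In P7 IP against input, 18 single values changed sign for genes that were called in the main fit or under the alternative. Changes of sign without a call in either fit are not counted here. With median-of-ratios scaling they were Epha4 at 0.0314, Epha6 at 0.0248, Ephb1 at 0.12, Sema6c at 0.0852, Plxnc1 at 0.0098, Nrp1 at 0.0781, Robo2 at 0.14 and Unc5a at 0.26. With quantile normalisation they were Epha6 at 0.30, Epha8 at 0.0512, Ephb1 at 0.0743, Efna5 at 0.40, Sema3a at 0.18, Sema3b at 0.0279, Plxnc1 at 0.12, Nrp1 at 0.18, Ntn3 at 0.25 and Unc5d at 0.05. Median-of-ratios scaling moves every gene the same way by construction, so values slightly below 0 turn and the changes of sign say nothing about the single genes. For quantile normalisation the cause was not tested beyond the shift of the median of all genes.

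With single libraries left out, the counts of genes higher and lower ran from 5 to 7 and 43 to 52 for P7 IP against input, 14 to 20 and 22 to 24 for P14 against P7, 3 to 3 and 18 to 26 for P21 against P14, and 12 to 14 and 29 to 32 for P21 against P7. For unequal steps they ran from 4 (without P21 IP replicate 2) to 7 and from 7 (without P14 IP replicate 2 or 3) to 15, beside 7 and 11 with all libraries. With the replicate number as a block the counts were 6 and 50, 20 and 23, 3 and 24, 14 and 34, and 7 and 12 in the order of the comparisons above. Whether replicate numbers mark pairs of samples is not settled. Deviations of same-numbered libraries correlated at -0.10 to 0.18 over 15 pairs, 1 of them above 0.1, and those of other libraries at -0.17 to 0.17. With 2 input libraries, their deviations are equal and opposite by construction, so pairs with input cannot show pairing. Among IP libraries alone, same-numbered pairs were all positive, at 0.012 to 0.18, and other pairs ran from -0.12 to 0.10. The files hold no depth, so whether low genes such as Ntn5, Plxnb3 or Robo4 were limited by read number cannot be seen, and only the spread of 2 or 3 libraries stands behind each value.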
